A study of Mus musculus with 12 samples.

Results

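The 9 genes described here encode 6 subunits of the class I PI3-kinases (Pik3r1, Pik3r2, Pik3r3, Pik3ca, Pik3cb and Pik3cd), the ubiquitin ligases Cbl and Cblb, and the inositide phosphatase Mtmr7. They were taken by gene symbol from a table of 47642 mouse genes, and all 9 passed the filter of a mean of at least 1 normalized count. The set was chosen because Pik3r1, Cblb and Mtmr7 were lower in both knockouts, so their differences from wild-type are given as a description without a test. The stated reason for that choice does not use the values of the other 6 genes, but the set was drawn up with earlier results of these data known.

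The measurements are RNA-seq of mIMCD3, an epithelial line from the mouse inner medullary collecting duct that was immortalized by the early region of simian virus SV40, which every group carries. Wild-type cells were compared with 1 Pkd1-/- clone (CRISPR) and 1 Pkd2-/- clone (TALEN), with 4 libraries per genotype. The 4 libraries of a genotype came from separate dishes of the same line, harvested 4 days after full confluency, and no treatment is labelled. P-values therefore measure the spread between dishes, and genotype and clone cannot be told apart. Values are normalized counts, that is reads per gene divided by the size factor of the library.

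Class I PI3-kinases are heterodimers. In the class IA forms, a regulatory subunit holds the catalytic subunit stable and inactive until its SH2 domains bind phosphorylated receptors or adaptors. The catalytic subunit then phosphorylates inositol lipids at the plasma membrane. The lipid product recruits Akt kinases, and inositide phosphatases remove it again. Cbl proteins attach ubiquitin to activated tyrosine kinase receptors and also bind the regulatory subunits. Mtmr7 belongs to the myotubularins, phosphatases that remove the phosphate which PI3-kinases place on the inositol ring.

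Total normalized counts ran from 25966273 to 28027792 per library, and no libraries were identical. Pkd1 had 41.8 ± 8.81 normalized counts (SD, n = 4) in Pkd1-/- and 782 ± 112 (SD, n = 4) in wild-type cells, whereas the sum over all Pkd2 exons was 3986 ± 124 (SD, n = 4) in Pkd2-/- and 3971 ± 451 (SD, n = 4) in wild-type cells. The labelled Pkd2 deletion spans only part of that gene, so this sum does not check the Pkd2-/- label. Of 14 markers of collecting duct and ductal epithelium, 11 had a mean of at least 10 in each genotype, among them Epcam, Cdh1, Pax2 and Pax8. Their levels were not all alike. In wild-type, Pkd1-/- and Pkd2-/- cells, the means of Krt19 were 4472, 1329 and 1409. Those of Gata3 were 227, 48.5 and 354, and those of Pax8 4204, 3937 and 5986, in the same order. Avpr2 and Elf5 had means below 10, and Aqp2, the water channel of principal cells, was at 0 in all libraries. The defining endothelial markers Cdh5 and Kdr and the leukocyte markers Itgam and Cd3e were also at 0 in all libraries. The summed leukocyte list ranged from 893 to 1000 in wild-type cells, from 428 to 652 in Pkd1-/- cells and from 732 to 828 in Pkd2-/- cells, mostly through Csf1r. The summed intercalated cell list ran from 29 to 82, from 437 to 547 and from 3 to 5 in the same order, the proximal tubule list from 480 to 557, from 33 to 71 and from 744 to 1222, and the fibroblast list from 29 to 55, from 89 to 103 and from 15 to 97, with the endothelial list at 10 or below. The intercalated cell sums of wild-type and Pkd1-/- cells came mostly from Atp6v1b1, and Foxi1 was at 0 in all libraries. Lrp2 gave most of each proximal tubule sum, while Slc34a1 and Slc22a6 were at 0 in all libraries. The part of the marker differences in the results was not tested. In bulk RNA, fewer cells of a type and less RNA per cell cannot be told apart. Within a genotype, libraries also differed with transcript length. After sorting genes by exon length into 5 equal classes, the median deviation of the longest class (at least 7601 exon bases) minus that of the shortest ran from -0.15 to 0.21 on the log2 scale, highest in Pkd2-/- 4. Pik3r1, Pik3ca, Cbl and Cblb belong to the longest class.

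Pik3r1 encodes the p85 alpha regulatory subunit and, from internal starts, shorter forms. The gene lies on chromosome 13 of GRCm38, from 101680563 to 101768217 on the minus strand, and its exons cover 10079 bases. The gene-level table holds 1 value for all of its transcripts. RefSeq sequences of GRCm38.p6 were found for 8 of the 9 genes, and the 250 bases before 2 starts of Pik3r1 are shown since the deposited value cannot separate them. The upstream window is chr13:101768218-101768467 and the internal one chr13:101692631-101692880, both on the minus strand. Neither overlaps an annotated exon. Capitals mark the GC box, GGGCGG or its complement CCGCCC.
Pik3r1, distal start: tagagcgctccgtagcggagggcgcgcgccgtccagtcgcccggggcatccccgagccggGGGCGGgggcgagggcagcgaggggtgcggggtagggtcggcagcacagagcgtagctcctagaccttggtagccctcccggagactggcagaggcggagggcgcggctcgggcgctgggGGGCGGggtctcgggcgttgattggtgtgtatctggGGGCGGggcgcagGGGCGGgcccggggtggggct
Pik3r1, internal start: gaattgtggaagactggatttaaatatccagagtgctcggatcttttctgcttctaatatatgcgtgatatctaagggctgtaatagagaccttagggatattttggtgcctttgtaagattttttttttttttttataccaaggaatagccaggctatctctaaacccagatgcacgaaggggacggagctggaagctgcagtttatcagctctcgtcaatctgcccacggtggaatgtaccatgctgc
The 2 windows differ in composition. The distal one has 76.4% G and C, 30 CpG dinucleotides and 4 GC boxes, whereas the internal one has 42.4% G and C, 6 CpG dinucleotides, 0 GC boxes and 1 match to TATAAA. The distal window also has 1 match to CCAAT. Each motif was searched on both strands, and none of the 3 contains another. GGGCGG was present in 32.7%, CCAAT in 33.8% and TATAAA in 12.4% of the 32851 windows of the same length. At least 4 GC boxes were found in 4.09% of windows, and the median window had 6 CpG dinucleotides. These matches describe the letters only.

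In wild-type cells, Pik3r1 had 1251, 859, 980 and 1090 normalized counts in libraries 1 to 4. The Pkd1-/- libraries had 511, 495, 503 and 511, and the Pkd2-/- libraries 414, 508, 430 and 559. Every knockout library lay below every wild-type library. The mean was 1045 ± 167 (SD, n = 4) in wild-type cells, 505 ± 7.66 in Pkd1-/- and 478 ± 68.0 in Pkd2-/- cells, or 48.3% and 45.7% of wild-type. On the log2 scale the difference from wild-type was -1.03 (SE 0.10) in Pkd1-/- and -1.12 (SE 0.10) in Pkd2-/- cells. Without wild-type library 1, the highest, the first value was -0.94. Between the knockouts the log2 difference was -0.091 (95% interval -0.31 to 0.13), and their libraries overlapped.

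Cblb, a ubiquitin ligase that restrains PI3-kinase signaling, lies on chromosome 16 from 52031225 to 52208048 on the plus strand. It had 1712, 1473, 1592 and 1804 normalized counts in wild-type cells, 714, 690, 677 and 745 in Pkd1-/- and 645, 751, 693 and 958 in Pkd2-/- libraries. All knockout libraries lay below the wild-type range. The means were 1645 ± 144 (SD, n = 4), 706 ± 29.9 and 762 ± 138, which left 42.9% of the wild-type level in Pkd1-/- and 46.3% in Pkd2-/- cells. Log2 differences from wild-type were -1.22 (SE 0.095) and -1.12 (SE 0.095). The knockout libraries overlapped, with a log2 difference of 0.093 between them (95% interval -0.11 to 0.29). Without Pkd2-/- 4, the library with the steepest length trend, that difference was -0.023.

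Mtmr7 showed the widest range. The gene lies on chromosome 8 from 40551095 to 40634797 on the minus strand. Its normalized counts were 274, 281, 289 and 236 in wild-type cells, 100, 103, 115 and 101 in Pkd1-/- and 20, 10, 15 and 20 in Pkd2-/- libraries. The 3 genotypes formed separate ranges, with Pkd1-/- between wild-type and Pkd2-/- cells. Mean levels were 270 ± 23.5 (SD, n = 4), 105 ± 6.95 and 16.2 ± 4.79, so that Pkd1-/- cells held 38.8% and Pkd2-/- cells 6.02% of the wild-type level. The log2 differences from wild-type were -1.36 (SE 0.18) and -4.02 (SE 0.18). Mtmr7 was 6.45-fold lower in Pkd2-/- than in Pkd1-/- cells (log2 difference -2.66, SE 0.18). The choice of this gene used the same libraries, so this difference too is given with no test.

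Among all 18552 genes tested, 3.28% were lower in Pkd1-/- and 6.38% in Pkd2-/- cells at an adjusted p under 0.05 with a log2 change of 1 or more, and 1.63% were lower in both. The 3 genes above were chosen from that class, so nothing is read from these shares.

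**Figure D1:**
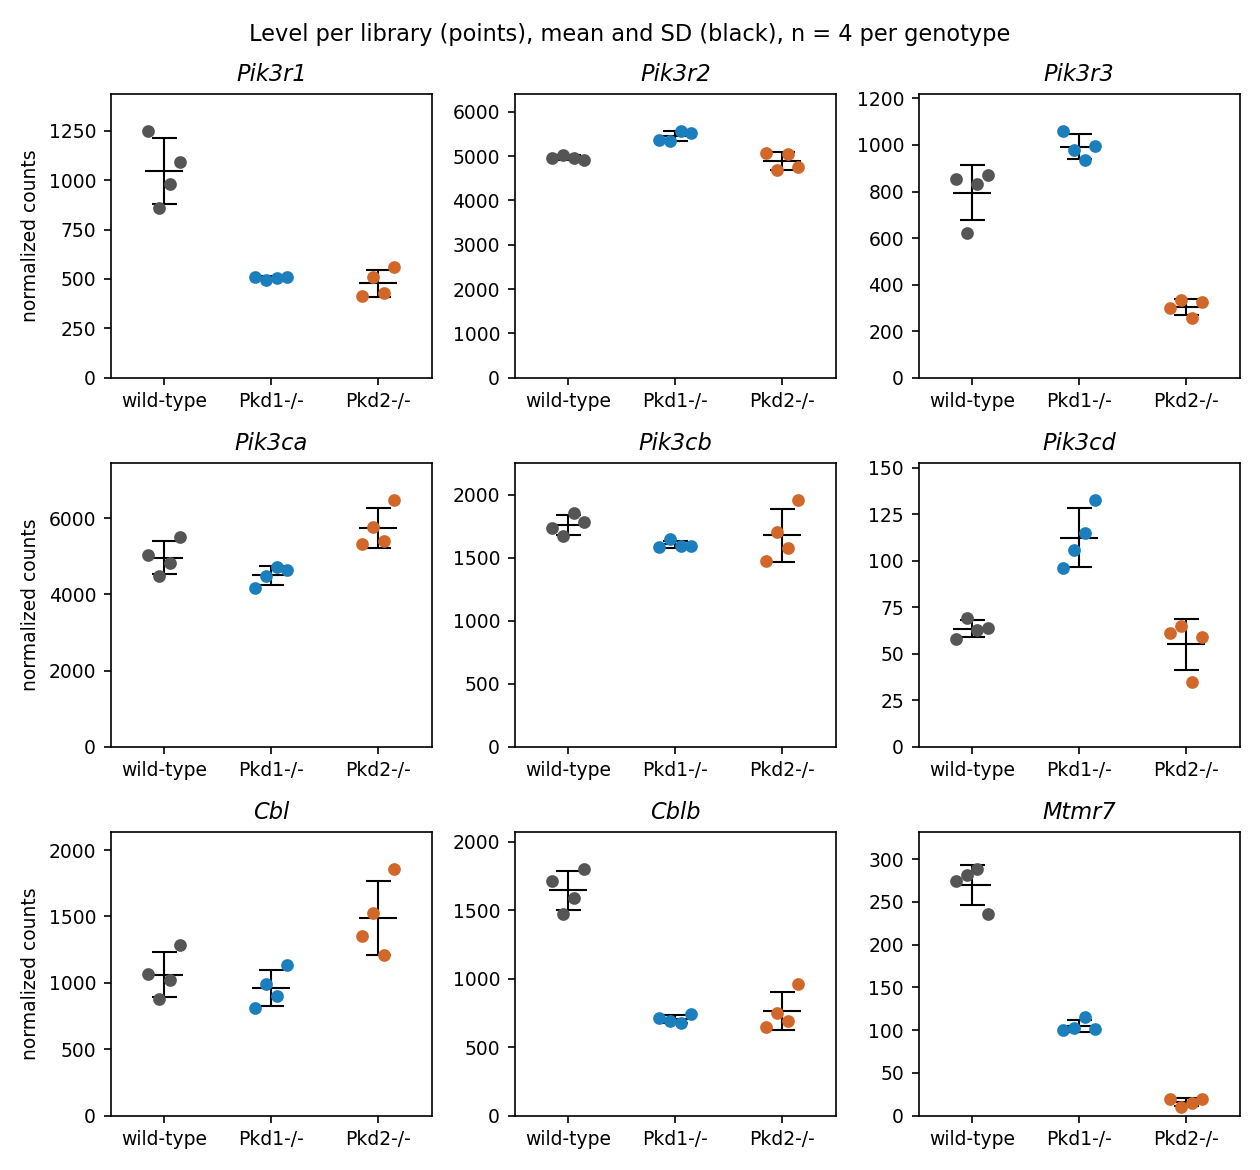
Normalized counts of the 9 genes (y axis, from 0) in each library (points) of wild-type, Pkd1-/- and Pkd2-/- cells (x axis), with the mean and SD in black (n = 4). For Pik3r1, Cblb and Mtmr7 all knockout points lie below the wild-type points, while Pik3r3 is highest in Pkd1-/- and lowest in Pkd2-/- cells.

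Of the other regulatory subunits, Pik3r3 fell in Pkd2-/- and rose in Pkd1-/- cells, and Pik3r2 rose in Pkd1-/- cells. Pik3r3, which encodes p55 gamma, had 853, 620, 833 and 873 normalized counts in wild-type cells, 1062, 980, 937 and 995 in Pkd1-/- and 300, 333, 257 and 327 in Pkd2-/- libraries. The genotypes did not overlap, and the order ran from Pkd1-/- down to Pkd2-/- cells. Pik3r3 fell 2.61-fold in Pkd2-/- cells (log2 fold change -1.38, SE 0.10, adjusted p = 2.14e-09, limma) and rose 1.25-fold in Pkd1-/- cells (log2 fold change 0.33, SE 0.10, adjusted p = 0.0185, limma). The rise rested on wild-type library 2, the lowest. Without it the log2 fold change was 0.22 with an adjusted p of 0.0679 in limma, and without Pkd1-/- library 1 it was 0.30 with an adjusted p of 0.055. Between the knockouts the log2 difference was -1.71 (SE 0.10, adjusted p = 7e-11, limma).

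Pik3r3 lies on chromosome 4 from 116221618 to 116303056 on the plus strand. The 250 bases before the most upstream of its RefSeq starts, chr4:116221166-116221415 of GRCm38.p6 on the plus strand, are shown for comparison with the Pik3r1 windows, because Pik3r3 was higher and Pik3r1 lower than wild-type in Pkd1-/- cells. Capitals mark GC boxes as before.
Pik3r3, first start: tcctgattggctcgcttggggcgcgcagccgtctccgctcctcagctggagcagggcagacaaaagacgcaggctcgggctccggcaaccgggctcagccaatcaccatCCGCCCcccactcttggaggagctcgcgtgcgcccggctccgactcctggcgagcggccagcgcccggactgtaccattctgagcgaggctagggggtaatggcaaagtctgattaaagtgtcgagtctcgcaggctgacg
This window overlaps no annotated exon and has 65.6% G and C, 23 CpG dinucleotides, 1 GC box and 2 matches to CCAAT.

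Pik3r2, which encodes p85 beta, was the most abundant regulatory subunit. Its libraries ranged from 4909 to 5030 normalized counts in wild-type cells, from 5336 to 5578 in Pkd1-/- cells and from 4681 to 5061 in Pkd2-/- cells. The Pkd1-/- range lay above both others. Pik3r2 rose 1.1-fold in Pkd1-/- cells (adjusted p = 0.0195, limma), and without Pkd1-/- library 3 or 4 the adjusted p was 0.0637 or 0.0516. No difference between Pkd2-/- and wild-type cells was detected (log2 fold change -0.024, 95% interval -0.11 to 0.06).

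Compared per kb of exon, Pik3r2 accounted for 82.5% ± 2.23 (SD, n = 4) of the regulatory pool of Pik3r1, Pik3r2 and Pik3r3 in wild-type cells, 84.6% ± 0.745 in Pkd1-/- and 91.8% ± 1.19 in Pkd2-/- cells. The share of Pik3r1 went from 7.17% ± 1.01 in wild-type cells to 3.25% ± 0.0414 in Pkd1-/- and 3.73% ± 0.623 in Pkd2-/- cells. That of Pik3r3 was 10.4% ± 1.39, 12.1% ± 0.704 and 4.51% ± 0.622, in the same order. Both smaller shares were lower than in wild-type in Pkd2-/- cells, whereas in Pkd1-/- cells only that of Pik3r1 was. The lower share of Pik3r1 restates the fall for which the gene was chosen. The sum of the 3 genes was 1440 ± 28.0 normalized counts per kb in wild-type cells, 1540 ± 24.1 in Pkd1-/- and 1280 ± 36.8 in Pkd2-/- cells. Since reads of short transcripts are divided by the exons of the whole gene, the length-scaled level of Pik3r1 may be too low in all genotypes, and these shares are of mRNA.

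Among the catalytic subunits, Pik3ca and Pik3cb made up nearly the whole pool. Pik3ca, which encodes p110 alpha, had 5025, 4476, 4818 and 5515 normalized counts in wild-type cells, 4163, 4493, 4709 and 4630 in Pkd1-/- and 5316, 5774, 5413 and 6489 in Pkd2-/- libraries. The Pkd2-/- libraries lay above all Pkd1-/- libraries and overlapped with wild-type. Pik3ca was higher in Pkd2-/- than in Pkd1-/- cells (log2 difference 0.35, SE 0.068, adjusted p = 2.73e-04, limma). Against wild-type it rose 1.16-fold in Pkd2-/- cells (log2 fold change 0.21, adjusted p = 0.016, limma), with an exact permutation p of 0.0857. The limma call was lost without wild-type library 2 (log2 fold change 0.165, adjusted p = 0.0677) or Pkd2-/- library 4 (0.153, adjusted p = 0.0611), and with the length trend removed the value was 0.274 (adjusted p = 3.38e-04). In Pkd1-/- cells its log2 fold change was -0.14 (95% interval -0.28 to 0.00).

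Pik3cb, which encodes p110 beta, was between 1471 and 1961 normalized counts in all libraries, and no comparison passed (log2 fold changes -0.13 in Pkd1-/- and -0.075 in Pkd2-/- cells). Without Pkd2-/- library 4, the highest, the second value was -0.15 with an adjusted p of 0.0387 in limma. The Pkd1-/- libraries (1586 to 1649) lay below all wild-type libraries (1670 to 1851). Their exact permutation p was 0.0286, the smallest possible with 4 against 4, while the adjusted p in limma was 0.178.

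Pik3cd, which encodes the p110 delta subunit best known from leukocytes, was the least abundant catalytic gene of the set. It had 58, 69, 63 and 64 normalized counts in wild-type cells, 96, 106, 115 and 133 in Pkd1-/- and 61, 65, 35 and 59 in Pkd2-/- libraries. Only the Pkd1-/- libraries stood apart, all above the others. Pik3cd rose 1.77-fold in Pkd1-/- cells (log2 fold change 0.81, SE 0.18, adjusted p = 0.00226, limma). It was 2.05-fold lower in Pkd2-/- than in Pkd1-/- cells (log2 difference -1.05, SE 0.18, adjusted p = 9.22e-05, limma). Against wild-type the Pkd2-/- cells gave -0.24 (95% interval -0.62 to 0.14), and -0.04 without library 3.

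Pik3cg, the class IB catalytic subunit that answers to G protein-coupled receptors, was not one of the 9 genes but completes the catalytic pool. Its normalized counts were 94, 92, 97 and 130 in wild-type cells, 46, 41, 56 and 54 in Pkd1-/- and 1, 0, 1 and 1 in Pkd2-/- libraries. It fell 2.1-fold in Pkd1-/- (adjusted p = 0.00627, limma) and was at least 34.4-fold lower in Pkd2-/- cells when these are set to a floor of 3 counts. Its regulatory partners Pik3r5 and Pik3r6 did not exceed 4 normalized counts in any library. Per kb of exon, Pik3ca took 67.1% ± 1.62 (SD, n = 4) of the catalytic pool in wild-type cells, 66.7% ± 1.00 in Pkd1-/- and 72.4% ± 0.664 in Pkd2-/- cells. The delta and gamma forms together remained a small part, with 2.42% ± 0.270 for Pik3cd in Pkd1-/- cells as the highest share. The ratio of the regulatory to the catalytic sum was 1.78 ± 0.0994 in wild-type cells, 2.08 ± 0.0790 in Pkd1-/- and 1.47 ± 0.175 in Pkd2-/- cells. The ranges of the 3 genotypes did not overlap (1.65 to 1.88, 2.03 to 2.20 and 1.26 to 1.64), but those of wild-type and Pkd2-/- cells nearly met. Exons of Pik3r2 cover 4176 bases and those of Pik3ca 9088. The ratio can therefore shift with the length trend of the libraries, which was not removed from it. The regulatory sums of both knockouts lay outside the wild-type range of 1410 to 1470, while the catalytic sums overlapped with wild-type.

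**Figure D2:**
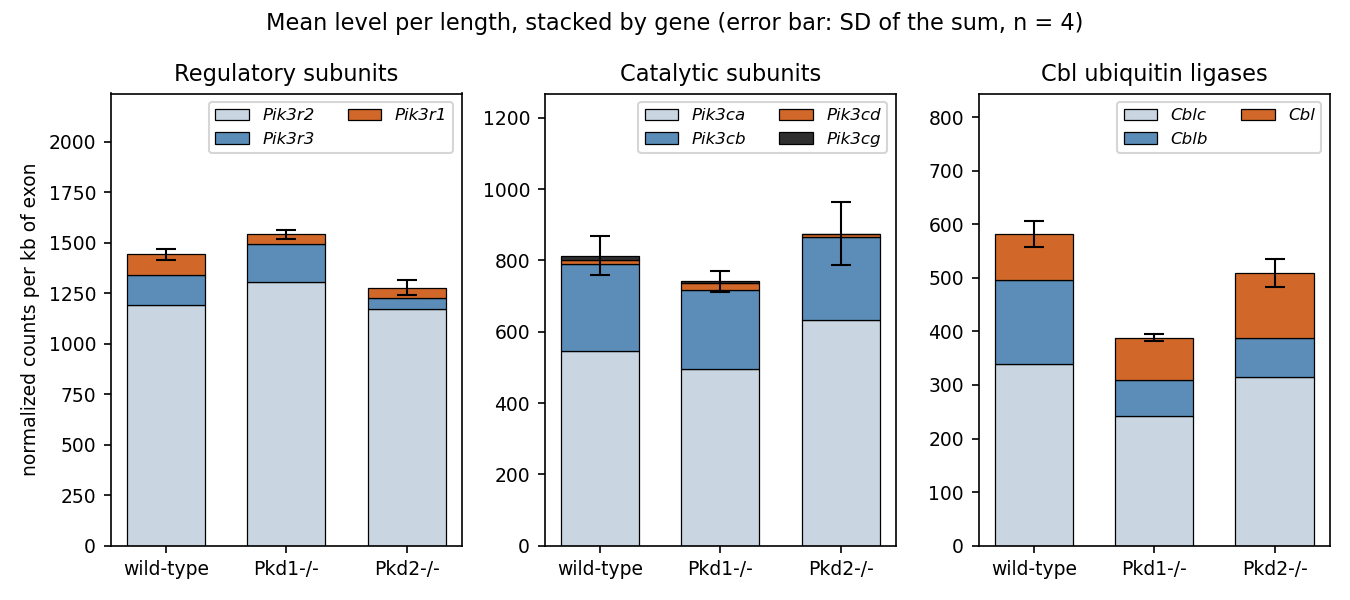
Mean normalized counts per kb of exon (y axis, from 0), stacked by gene, for the regulatory subunits, the catalytic subunits and the Cbl genes in each genotype (x axis); error bars are the SD of the sum (n = 4). Pik3r2, Pik3ca and Cblc form the largest block of their pool in every genotype.

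Cbl rose in Pkd2-/- cells, and its difference from wild-type in Pkd1-/- cells did not pass. It had 1067, 876, 1019 and 1282 normalized counts in wild-type cells, 808, 995, 905 and 1132 in Pkd1-/- and 1354, 1527, 1208 and 1861 in Pkd2-/- libraries. The Pkd2-/- libraries exceeded all Pkd1-/- libraries, with 1 of them inside the wild-type range. Cbl rose 1.40-fold in Pkd2-/- cells (log2 fold change 0.48, SE 0.13, adjusted p = 0.00426, limma) and gave -0.14 in Pkd1-/- cells (95% interval -0.41 to 0.12). The exact permutation p of the rise was 0.0571. Its exons cover 12345 bases, the longest of the set, and its highest library, Pkd2-/- 4, had the steepest length trend. Without that library the log2 fold change was 0.37 (adjusted p = 0.0157, limma), and with the length trend removed it was 0.56 (adjusted p = 1.26e-04, limma). Between the knockouts the log2 difference was 0.62 (SE 0.13, adjusted p = 4.17e-04, limma).

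Cblc, the epithelial member of the family, is shorter and had the largest share of the Cbl pool per kb, at 58.3% ± 3.25 (SD, n = 4) in wild-type cells, 62.5% ± 3.41 in Pkd1-/- and 62.1% ± 5.76 in Pkd2-/- cells. It fell 1.40-fold in Pkd1-/- cells (log2 fold change -0.48, adjusted p = 2.58e-05, limma) and gave -0.11 in Pkd2-/- cells (95% interval -0.25 to 0.04). The share of Cblb went from 26.9% ± 1.38 in wild-type cells to 17.4% ± 0.685 in Pkd1-/- and 14.2% ± 2.01 in Pkd2-/- cells. The summed level was 582 ± 24.4 normalized counts per kb in wild-type cells, 388 ± 6.84 in Pkd1-/- and 509 ± 26.7 in Pkd2-/- cells. Cblb was chosen for its fall, so its lower share and its part in these sums follow from that choice.

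Of the 12 comparisons of the 6 tested genes with wild-type, 6 passed an adjusted p under 0.05. In Pkd1-/- cells, 3 of 6 genes rose and 0 fell (0 also at an unadjusted p under 0.05 in limma), where 13.6% of all genes rose and 13.5% fell. In Pkd2-/- cells, 2 rose and 1 fell, where 20.0% of all genes rose and 22.3% fell. In the direct comparison of the knockouts, 5 of these 6 genes passed (2 higher and 3 lower in Pkd2-/- cells), against 21.9% higher and 24.3% lower among all genes, and 2 of the 3 lower ones were also past the fold threshold, as were 7.23% of all genes. With 6 genes, these counts describe the set only. The 5 genes were Pik3r2, Pik3r3, Pik3ca, Pik3cd and Cbl. All comparisons with wild-type share the same 4 wild-type libraries.

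**Figure D3:**
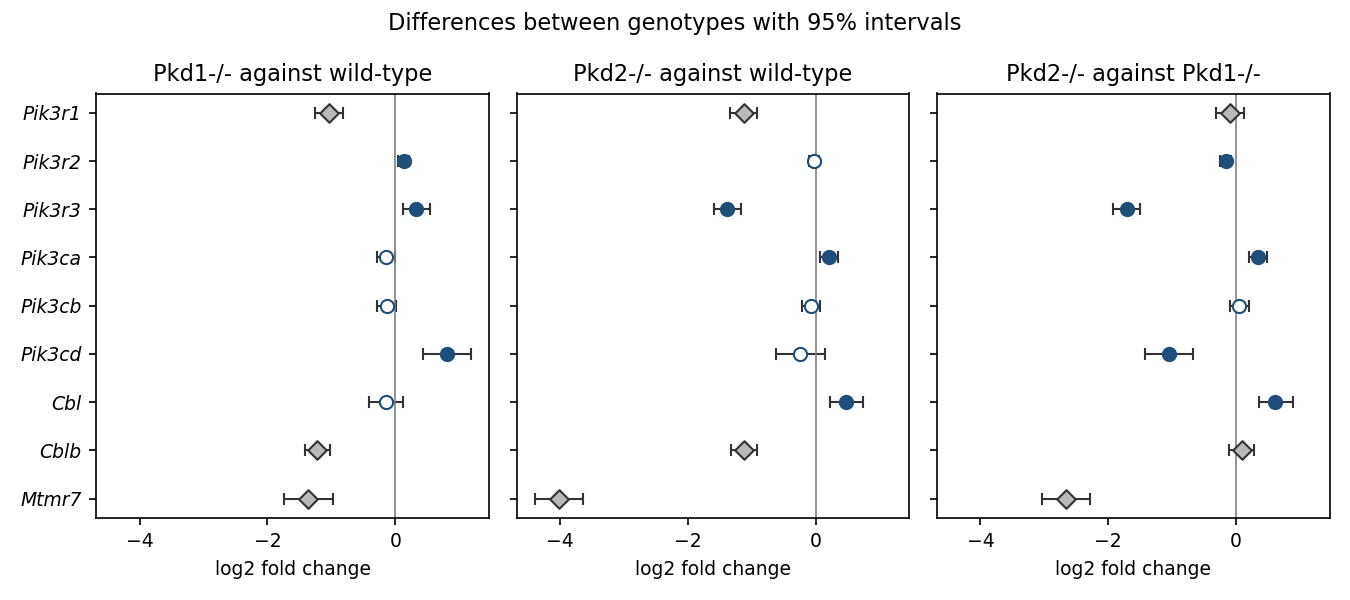
Log2 fold changes of the 9 genes (x axis) with 95% intervals in the 3 comparisons; filled circles passed an adjusted p under 0.05 in limma, open circles did not, and gray diamonds mark Pik3r1, Cblb and Mtmr7, whose fall chose them and for which no test is given. Mtmr7, Pik3r3 and Pik3cd have the largest differences between the knockouts, at -2.66, -1.71 and -1.05.

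Ordered by level per kb of exon in wild-type cells, Pik3r2 (1189 normalized counts per kb) came first, followed by Pik3ca (546), Pik3cb (245), Cblb (157), Pik3r3 (150), Pik3r1 (104), Cbl (85.9), Mtmr7 (60.6) and Pik3cd (10.1). The libraries of Cblb and Pik3r3, of Pik3r3 and Pik3r1, and of Pik3r1 and Cbl overlapped, so these neighbors were not separated. The first 3 places were the same in every genotype. In Pkd1-/- cells Pik3r3 (187) took the fourth place without overlap, and in Pkd2-/- cells Cbl (120) did so. Mtmr7 was last in Pkd2-/- cells (3.65), below Pik3cd (8.79).

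Outside the 9 genes, the pathway list held 74 genes, of which 68 could be tested and 6 (Pik3r5, Pik3r6, Pik3c2g, Pik3ap1, Pip5k1b and Foxo6) were too low. In Pkd1-/- cells 10 of the 68 rose and 15 fell (14.7% and 22.1%, beside 13.6% and 13.5% of all genes), and in Pkd2-/- cells 18 rose and 19 fell (26.5% and 27.9%, beside 20.0% and 22.3% of all genes). The counts of the smaller lists below are set beside the same shares of all genes. Those shares include every gene down to the filter of 1, whereas most listed genes lie far above it. They were not matched for expression level, so a higher share in a list is a description only. The median log2 fold changes were -0.041 and 0.011, beside 0.011 and -0.006 over all genes tested. Of the 13 other myotubularins, the family of Mtmr7, 0 rose and 2 fell in Pkd1-/- cells in limma (0 and 3 at an unadjusted p under 0.05), and 5 rose and 2 fell in Pkd2-/- cells, with no log2 fold change of 1 or more. Mtmr9, the inactive partner that binds Mtmr7 and was singled out for that role, had -0.035 (95% interval -0.17 to 0.10) and 0.11 (95% interval -0.03 to 0.24).

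Of 11 adaptors of Cbl and PI3-kinase, 5 rose and 2 fell in Pkd1-/- cells (45.5% and 18.2%, beside 13.6% and 13.5% of all genes), and 4 rose and 4 fell in Pkd2-/- cells (36.4% each, beside 20.0% and 22.3%). Those that fell in Pkd1-/- cells were Pik3ip1, an inhibitor of the catalytic subunits (log2 fold changes -0.83 in Pkd1-/- and -0.75 in Pkd2-/- cells), and Gab1, an adaptor that brings PI3-kinase to growth factor receptors (-0.53 and -0.52). Of those that rose there, Cd2ap had 0.25 and 0.68 and the adaptor Gab2 had 0.36 and 0.22. These 4 genes were singled out after their values were seen. Sh3kbp1, which links Cbl proteins to receptor endocytosis, moved in opposite directions. It had 44, 39, 32 and 43 normalized counts in wild-type cells, 127, 124, 134 and 128 in Pkd1-/- and 6, 17, 10 and 6 in Pkd2-/- libraries. The 3 ranges were separate, with the pattern of Pik3r3. Sh3kbp1 rose 3.25-fold in Pkd1-/- (adjusted p = 5.52e-05, limma) and fell 4.05-fold in Pkd2-/- cells (adjusted p = 3.45e-06, limma). Of 10 inositide kinases outside the PI3-kinases, 2 rose and 3 fell in Pkd1-/- cells, and 6 rose and 2 fell in Pkd2-/- cells. Pip4k2a, one of them, had the reverse pattern, with a mean of 494 in wild-type cells, 219 in Pkd1-/- cells and 665 in Pkd2-/- cells (log2 fold changes -1.18 and 0.43, adjusted p = 4.75e-08 and 0.00207, limma).

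Of 17 other inositide phosphatases, 2 rose and 4 fell in Pkd1-/- cells (11.8% and 23.5%, beside 13.6% and 13.5% of all genes), and 2 rose and 6 fell in Pkd2-/- cells (11.8% and 35.3%, beside 20.0% and 22.3%). Among them, Synj2 and Inpp5j fell in Pkd2-/- cells by 1.12 and 1.08 on the log2 scale (adjusted p = 1.72e-09 and 5.02e-07, limma). In Pkd1-/- cells Synj2 rose by 0.43 (adjusted p = 4.10e-04, limma) and Inpp5j gave 0.08. Inpp5d, a phosphatase known from blood cells, was near the floor, with 4 to 6 normalized counts in wild-type libraries and at most 3 in any knockout library, so it was at least 1.75-fold lower in each knockout.

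Akt1, which encodes a kinase recruited by the lipid product, rose 1.14-fold in Pkd1-/- cells (log2 fold change 0.19, adjusted p = 0.00341, limma) and gave -0.043 in Pkd2-/- cells. For Akt2 the log2 fold changes were 0.12 and 0.037, neither of which passed. The value in Pkd1-/- cells passed with a minimum mean of 10, with equal upper quartiles and with the length trend removed. Over the 11 tested genes of the Akt branch, 1 rose and 2 fell in Pkd1-/- cells, and 0 rose and 3 fell in Pkd2-/- cells in limma (2 and 3 at an unadjusted p under 0.05). Of the 4 tested class II and III genes, 0 passed in Pkd1-/- cells in limma (1 at an unadjusted p under 0.05), and 1 rose and 1 fell in Pkd2-/- cells. Pik3c3 and Pik3r4, the catalytic and regulatory subunits of the class III enzyme, did not pass against wild-type (log2 fold changes -0.12 and 0.078 for Pik3c3, and -0.047 and -0.066 for Pik3r4). The means of Akt1, Akt2, Pik3c3 and Pik3r4 lay within 1.14-fold of wild-type in both knockouts.

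**Figure D4:**
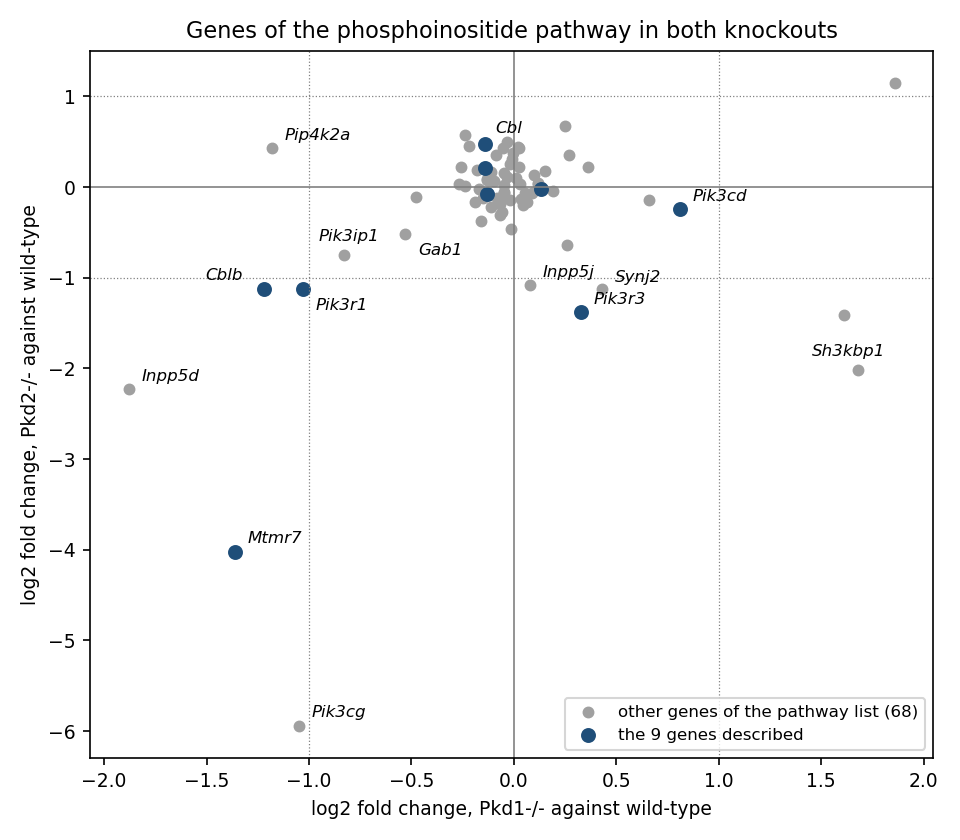
Log2 fold change in Pkd1-/- (x axis) and Pkd2-/- cells (y axis) against the same wild-type libraries for the 9 genes (blue) and the 68 other tested genes of the pathway list (gray); dotted lines mark a log2 fold change of 1. Pik3r1, Cblb and Mtmr7 lie in the lower left with Pik3cg and Inpp5d, while Pik3r3, Synj2 and Sh3kbp1 lie to the lower right.

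The surroundings of the 3 genes lower in both knockouts were examined next. Genes with a mean of at least 10 within 1 Mb of Pik3r1 (6 genes) had median log2 fold changes of 0.11 in Pkd1-/- and -0.06 in Pkd2-/- cells. Its nearest tested neighbors were distant, with Hmgb1-ps9 641317 and Mast4 964269 bases away. Hmgb1-ps9 had 1.83 normalized counts on average and log2 fold changes of 1.64 and 0.25, neither passing. Mast4 had 0.20 and 0.72, the second with adjusted p = 7.78e-06 in limma. The overlapping Gm36638 had a mean of at most 2.83 normalized counts. Around Mtmr7, the 11 genes within 1 Mb had medians of -0.03 (6 below 0) and -0.23 (8 below 0). The lowest of them in Pkd2-/- cells, Mtus1, fell by 3.34 there (adjusted p = 8.45e-14, limma) and rose by 0.78 in Pkd1-/- cells (adjusted p = 6.20e-05, limma) on the log2 scale, and it was named after its values were seen. Vps37a, which overlaps Mtmr7 on the other strand, gave 0.01 and 0.16, Cnot7 gave -0.03 and -0.24 (the second with adjusted p = 2.72e-04, limma), and Gm5345 gave 0.08 and -0.30. Whether reads were assigned by strand is not given in the sources used here.

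For Cblb, the adjacent gene Alcam fell in both knockouts, by 0.65 and 0.70 on the log2 scale (adjusted p = 2.87e-08 and 5.20e-09, limma), and lies 40948 bases away. On the other side, Gm6767, 667393 bases away, gave 0.06 and 0.16, and the overlapping Gm23513 was at 0. Within 5 Mb of Cblb, 25 genes had medians of -0.34 in Pkd1-/- (19 below 0) and 0.05 in Pkd2-/- cells (11 below 0). Within 5 Mb of Pik3r1 (51 genes) the medians were -0.01 and -0.05, and within 5 Mb of Mtmr7 (28 genes) they were -0.05 and -0.11. Medians over the whole of chromosomes 13, 16 and 8 were -0.03, -0.03 and 0.00 in Pkd1-/- and -0.04, 0.04 and -0.06 in Pkd2-/- cells. The part of the local difference around Cblb in its value in Pkd1-/- cells was not tested.

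The likeness of expression patterns was measured as the root mean square difference of log2 profiles over the 12 libraries, each profile centred on its wild-type mean, among 11382 genes with a mean of at least 50. Nearest to Pik3r1 were Cblb (0.137), Map3k5 (0.172) and Dab2 (0.173). For Cblb they were Pik3r1 (0.137), Epha4 (0.18) and Phactr2 (0.183). Pik3r1 and Cblb were thus each other's nearest gene, but both were chosen for their fall, and their long transcripts share the length trend of the libraries. The nearest genes to Mtmr7 were more distant, with 0.331 for Dclk1, 0.358 for Pianp and 0.384 for Cables1. Dclk1 had means of 276 normalized counts in wild-type cells, 97.5 in Pkd1-/- and 21.2 in Pkd2-/- cells. These distances describe the 12 libraries and carry no test.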

How the data were processed

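RNA of 12 libraries of mIMCD3 cells (4 each of wild-type, Pkd1-/- and Pkd2-/-) was analyzed. Per the labels and methods, the authors trimmed reads with Trim Galore, aligned them to mm10 (GRCm38) with HISAT2, counted them with htseq-count, and normalized with DESeq2. What the authors deposited are score values: normalized counts, scaled by library size factors and rounded to whole numbers. Count models were therefore not used here. The read depth behind them is not given in the table. A value of 0 allows up to 3 counts per library, and this floor covers counting error only. Samples were grouped by their labels, and 0 sample columns were left unused.

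Symbols, positions and exon lengths came from GENCODE M21 (GRCm38), which matched 47223 of 47642 identifiers. For tests, limma 3.58.1 (lmFit, eBayes with trend) in R 4.3.3 was run on log2(normalized count + 1), with all 12 libraries in 1 model and 18552 genes whose mean reached 1. Two-sided p-values were adjusted within each comparison by Benjamini-Hochberg. "Rose" and "fell" mean an adjusted p under 0.05. Fold changes of low genes are understated on this scale. Single genes were also compared by a two-sided exact permutation test. A fold against a group with no library above 3 counts is a bound, computed against 3 counts per library. Other computations used Python 3.11.15, numpy 2.4.6, pandas 2.3.3, scipy 1.17.1 and matplotlib 3.10.9. The test was checked on simulated data.

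The 9 genes, the pathway and marker lists and the rules were chosen with earlier results of these data known. Named genes were the 9, pathway genes past both thresholds in both knockouts (or in 1, with a mean of at least 10), Akt1, Akt2, Cblc, Pik3cg, Pik3c3, Pik3r4, Pkd1 and Pkd2, the 3 nearest profiles, and neighboring genes. Mtmr9 was added for its role, and Pik3ip1, Gab1, Cd2ap, Gab2 and Mtus1 after their values were seen. Some genes of the pathway are not reported here, and the list counts leave them out. As alternatives, the pseudocount was set to 0.5 or 5, the filter dropped or raised to 10, and the test repeated with a replicate block, only the 2 genotypes compared, equal upper quartiles, no variance trend, no fold threshold, each library left out, and, added after seeing the data, removal of the length trend.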

Additional observations from a re-analysis of the deposited data

Results flagged for a closer look

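For the 9 genes and 13 further genes of the text, 66 groups of 4 libraries were examined for 1 library far from the others, which chance gives in about 1 of 20 groups, and 6 were found. They are Pik3r3 in wild-type library 2 (620 normalized counts), Pik3cb in Pkd1-/- library 2 (1649), Pik3cg in wild-type library 4 (130) and in Pkd2-/- library 2 (0), Inpp5d in Pkd2-/- library 4 (2) and Synj2 in Pkd2-/- library 1 (168). For Pik3cg and Inpp5d in Pkd2-/- cells the remaining libraries were tied at 1 and at 0. That chance rate does not hold for tied counts.

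Both knockouts were also compared with each other, and 13 of the 19 genes tested differed at an adjusted p under 0.05 in limma. Among all genes, 21.9% were higher and 24.3% lower in Pkd2-/- cells. Several of the 19 were named for their differences from wild-type in these same libraries, so nothing is read from this count. Among the 6 tested members of the set, the log2 difference of Pkd2-/- minus Pkd1-/- was -1.71 for Pik3r3, -1.05 for Pik3cd, -0.16 for Pik3r2, 0.35 for Pik3ca and 0.62 for Cbl. For Pik3cg, with at most 1 normalized count in Pkd2-/- libraries, the fitted value of -4.89 depends on the pseudocount, and against a floor of 3 counts per library the gene was at least 16.4-fold lower. Among the other genes the difference was -3.70 for Sh3kbp1, -1.55 for Synj2, -1.16 for Inpp5j, -0.23 for Akt1, 0.20 for Pik3c3, 0.38 for Cblc and 1.61 for Pip4k2a.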

How the results depend on the processing

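The counts of passing genes moved by at most 1.5 times in every alternative except these. Without the fold change threshold, 5020 genes differed in Pkd1-/- against wild-type, 7852 in Pkd2-/- against wild-type and 8588 between the knockouts, where 1158, 1785 and 2182 were called with it. With a minimum mean of 10 normalized counts, 739 genes were called in Pkd1-/- against wild-type, since fewer genes were tested. Same-numbered libraries did not deviate together in every pair (r from -0.16 to 0.39, and the best match carried the same number in 7 of 24 cases), so they were not treated as pairs, although the 3 pairs of library 4 had r of 0.187, 0.387 and 0.321. With a replicate block, 1170, 1790 and 2183 genes were called, and the count over the 6 tested members was as before, at 6 against wild-type. Leaving out single libraries gave 4 to 6. Among the 9 genes, the difference between the knockouts changed sign for Pik3cb with equal upper quartiles (-0.010) and without Pkd2-/- library 4 (-0.021, range over single libraries left out up to 0.117), and for Cblb without that library (-0.023, up to 0.167), none of which passed; the cause was not tested. With a pseudocount of 5, Mtmr7 in Pkd2-/- against wild-type gave -3.72. Besides the calls given with their genes, the rise of Pik3r3 in Pkd1-/- and of Pik3ca in Pkd2-/- cells did not pass without the variance trend, nor did the latter with equal upper quartiles. Over all 22 genes and all alternatives, 9 values lost a call (Pik3r2, Pik3r3 and Pik3ca) and 7 gained one (Akt2, Pik3c3 and Pik3cb). The low counts of Mtmr7 in Pkd2-/- cells limit the precision of its fold.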
